A study of Homo sapiens with 8 samples.

Results

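Nuclear receptors are transcription factors that bind short DNA elements built on the hexamer AGGTCA or a relative of it, and many of them switch between repression and activation when a hormone, retinoid, sterol or fatty acid occupies their ligand pocket. Coregulators carry out that switch: coactivators such as the p160 proteins bring in histone acetyltransferases, and corepressors such as NCOR1 bring in histone deacetylases. ESRRA encodes ERRα, an orphan receptor with no settled natural ligand that drives mitochondrial energy genes with PGC-1 coactivators.

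The set described here holds 52 genes, 46 receptors of the superfamily and 6 coregulators, picked by symbol from the 23368 gene symbols of the count table. All 52 symbols had a row. RNA-seq had been run on MDA-MB-231, an established human breast cancer line of the triple-negative, mesenchymal type. The cells had received siE1, siE2 or siE3, each an siRNA against ESRRA, or the control siRNA siC, and each group had 2 libraries (8 in all). Every group is the same line, grown in DMEM with 10% fetal calf serum and transfected with INTERFERin. The serum carries hormones and retinoids in unknown amounts, no receptor ligand was added per the labels, and no source used here gives the sequences of the siRNAs.

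Total counts ran from 21835995 to 25880548 per library. Libraries of the same siRNA differed less (chi-square per degree of freedom 3.11 to 5.12 over the 4 groups) than libraries of different siRNAs (40.6 to 75.1). Nothing in the labels ties the 2 libraries of a group to separate cultures. The p-values therefore reflect library-to-library spread alone, possibly technical. As these are bulk libraries, fewer cells of a kind and less RNA per cell cannot be told apart. The mesenchymal marker VIM had 73202 to 93788 counts per library, the epithelial cadherin CDH1 had 0 to 3, the leukocyte marker PTPRC had 0 to 2, and DCN of fibroblasts and HBB of red cells had 0. The collagen gene COL1A1 had 91 to 230 counts and the luminal-type marker EPCAM 229 to 297. Of 8 listed luminal markers, 5 had enough counts to be tested: GATA3, FOXA1, KRT18, KRT8 and EPCAM. ESR1, PGR and CDH1 did not. Of 5 listed fibroblast markers 2 did, COL1A1 among them. Fold changes below are log2 values from edgeR's quasi-likelihood test over 13395 tested genes, "called" means an edgeR adjusted p below 0.05, and CPM is the count scaled to library size and TMM factor.

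To show what the promoters of these genes look like, 4 windows are printed, each from 250 bases before to 50 bases after a RefSeq transcript start on GRCh38.p14, with AGGTCA on either strand in capitals. They are ESRRA, the target (chr11:64305274-64305573, plus strand), and a window each of PPARG (chr3:12287118-12287417, plus strand), RARB (chr3:25340552-25340851, plus strand) and NR1H3 (chr11:47248050-47248349, plus strand), which held the hexamer and were called higher with siE2 and siE3. The 3 are examples picked with those calls known: of the tested genes, RARA, ESR2 and NR5A2 held it as well, and RARA was called lower with siE1 and siE3 while ESR2 and NR5A2 gave no call.
ESRRA: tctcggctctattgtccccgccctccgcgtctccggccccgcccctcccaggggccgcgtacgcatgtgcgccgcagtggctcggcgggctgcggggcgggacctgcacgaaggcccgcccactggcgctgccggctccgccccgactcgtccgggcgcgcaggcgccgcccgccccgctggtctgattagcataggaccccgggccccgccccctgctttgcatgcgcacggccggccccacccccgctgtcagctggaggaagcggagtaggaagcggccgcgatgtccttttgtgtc
PPARG: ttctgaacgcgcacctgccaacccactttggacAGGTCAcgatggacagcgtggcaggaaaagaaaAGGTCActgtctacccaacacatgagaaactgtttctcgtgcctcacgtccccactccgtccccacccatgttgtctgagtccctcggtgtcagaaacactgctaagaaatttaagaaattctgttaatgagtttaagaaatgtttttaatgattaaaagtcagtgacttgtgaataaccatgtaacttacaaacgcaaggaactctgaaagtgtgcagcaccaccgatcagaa
RARB: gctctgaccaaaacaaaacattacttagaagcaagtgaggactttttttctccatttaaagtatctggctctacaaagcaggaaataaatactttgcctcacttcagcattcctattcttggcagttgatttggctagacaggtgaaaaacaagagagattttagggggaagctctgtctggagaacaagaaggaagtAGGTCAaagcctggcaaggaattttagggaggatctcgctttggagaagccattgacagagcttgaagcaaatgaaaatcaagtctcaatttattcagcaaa
NR1H3: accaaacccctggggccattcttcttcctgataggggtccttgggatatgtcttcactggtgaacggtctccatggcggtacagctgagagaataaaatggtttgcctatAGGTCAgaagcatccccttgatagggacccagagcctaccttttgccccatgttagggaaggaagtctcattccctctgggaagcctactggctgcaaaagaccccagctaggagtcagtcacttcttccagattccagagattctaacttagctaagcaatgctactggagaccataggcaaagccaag

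The PPARG window held the hexamer at 2 places, -217 and -184 from the start, the RARB window at -52 and the NR1H3 window at -140. PPARG had 6 start windows in RefSeq, of which 3 held the hexamer, and RARB and NR1H3 had 4 each, of which 1 did. The single ESRRA window held none. Windows were found for 46 of the 52 genes (106 windows). AGGTCA, searched on both strands, stood in 15.1% of these windows and in 13.8% of all 35116 windows of the table. In the 74 windows of tested genes the share was 13.5%. The longer ERR response element TNAAGGTCA, which contains the hexamer, stood in 1 of the 106 windows, that of NR2E1, and in 0.951% of all windows. A match describes these letters only, and which start each gene used in these cells was not measured.

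In siC cells the family was unevenly present. Of the 52 genes, 38 had enough counts for the test. Of the other 14, 5 had no count in any of the 8 libraries: PGR (progesterone receptor), RXRG, NR1I2 (the xenobiotic receptor PXR), NR2E1 (TLX of neural stem cells) and NR0B1 (DAX1). Out of 184637652 counts in all, a count of 0 allows a level of up to 0.0162 CPM, a limit for counting error only. ESR1, the estrogen receptor that triple-negative tumours lack, had 1 count in siE2 replicate 1, 1 in siC replicate 1 and 0 in the other libraries. The ERRα relatives were near 0 as well. ESRRB had 2 and 1 counts with siE1, 0 and 0 with siE2, 2 and 1 with siE3, and 0 and 0 with siC, and ESRRG had 0 or 1 in every library. NR4A3, an inducible receptor, had 3 to 9 counts per library. NR1H4 (the bile acid receptor FXR), HNF4A, NR2E3 of photoreceptors, NR5A1 (SF-1 of steroid-producing cells) and NR0B2 (SHP) had 0 to 4.

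Per kilobase of exon, the histone demethylase KDM1A was the most abundant of the 52 in siC cells, at 52.1 ± 1.74 CPM per kb (SD, n = 2), followed by NR1H2, the ubiquitous oxysterol receptor LXRβ, at 49.5 ± 0.0139. NCOR1 followed at 35.3 ± 1.77, RXRA, the common partner of many receptors, at 31.3 ± 1.92, and ESRRA at 26.1 ± 0.534. The 2 siC libraries of each of these 5 genes did not overlap with those of its neighbour in the order. With the siRNAs ESRRA stood at 4.24 ± 0.0460 (siE1), 3.29 ± 0.466 (siE2) and 3.44 ± 0.0699 CPM per kb (siE3). The exon lengths are from GENCODE v29 and not from the annotation the authors used.

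**Figure D1:**
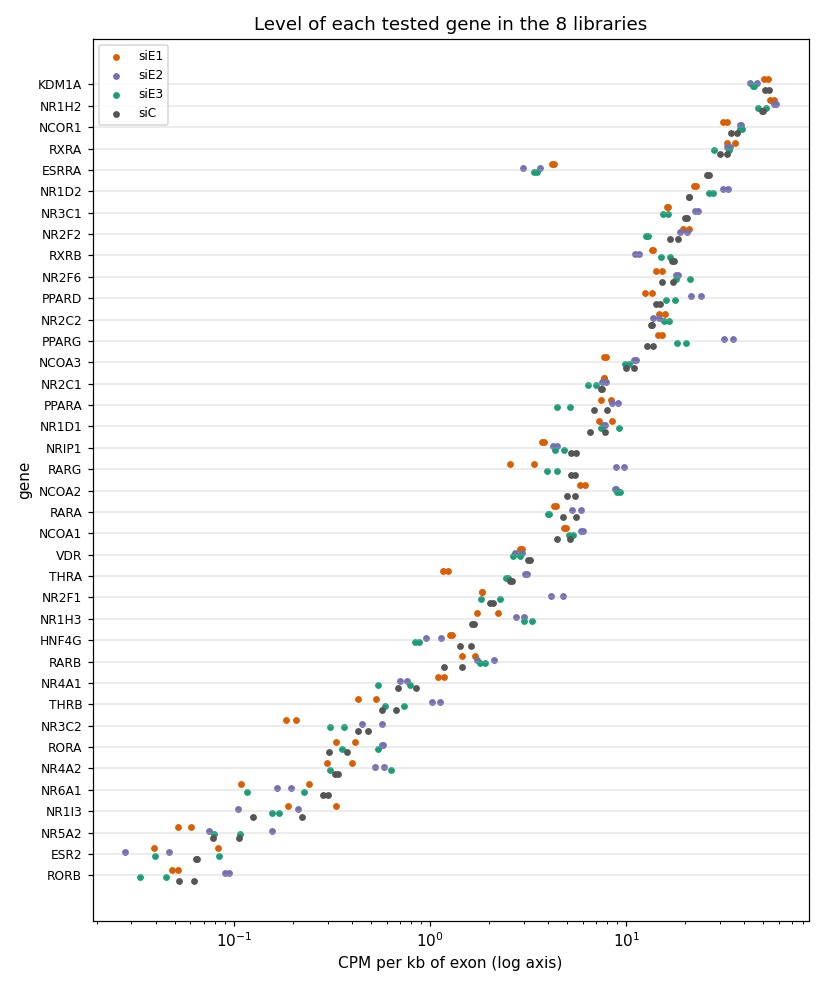
Level of the 38 tested genes in each of the 8 libraries, as CPM per kilobase of exon on a log axis, ordered by the siC mean; each point is a library and colours mark siE1, siE2, siE3 and siC. The siC means run from 52.1 for KDM1A downwards, and ESRRA is the gene whose siRNA points lie farthest left of its siC points.

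ESRRA was low in all 6 libraries of its siRNAs. Its level was 10.3 and 10.5 CPM with siE1, 8.86 and 7.25 with siE2, 8.55 and 8.31 with siE3, and 62.9 and 64.8 with siC. All 6 lay below both siC libraries, while the siE3 libraries lay between those of siE2. The fall was -2.62 (SE 0.0857), -2.99 (SE 0.0896) and -2.92 (SE 0.0894) on the log2 scale (edgeR adjusted p = 7.25e-12, 6e-12 and 4.91e-12). Between siE2 and siE3 the ESRRA difference was -0.06 (SE 0.113, edgeR adjusted p = 0.673, 95% interval -0.31 to 0.18), while siE1 less siE2 was 0.37 and siE1 less siE3 was 0.30 (edgeR adjusted p = 0.00922 and 0.031). The gene's exons share 284 bases with TRMT112 on the opposite strand in GENCODE v29, 11.6% of their length, and TRMT112 had 1881 to 3048 counts per library. No source used here says whether the counting used strand, and the part of such reads in the ESRRA count was not tested.

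Calls among the receptors and coregulators were read against those over all tested genes. With siE1, 5 rose and 10 fell of the 38, or 39.5%, while 50.3% of all tested genes were called. With siE2, 18 rose and 5 fell (60.5%, against 56.4% of all genes), and with siE3, 9 rose and 9 fell (47.4%, against 42.1%). For the average of the 3 ESRRA siRNAs, 11 rose and 10 fell (55.3%, against 51.1%). ESRRA, the target of the siRNAs, is in each of these counts and in the 1.5-fold counts below. Without it, 14 (siE1), 22 (siE2), 17 (siE3) and 20 (average) of 37 genes were called. With a change of at least 1.5-fold required as well, 4 were called with siE1, 12 with siE2, 5 with siE3 and 5 in the average, while 14.7%, 18%, 9.97% and 9.53% of all genes were. Those of the average were ESRRA and NR6A1 (lower) and PPARG, NR1H3 and NCOA2 (higher). The median log2 fold change of the 38 was -0.09 with siE1, 0.16 with siE2 and -0.05 with siE3, against -0.01, 0.01 and 0.00 over all genes. Without siC replicate 2 the counts were 9 for siE1 and 13 for the average, and the 1.5-fold count of the average was 3 without siC replicate 2 and without siE3 replicate 2.

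**Figure D2:**
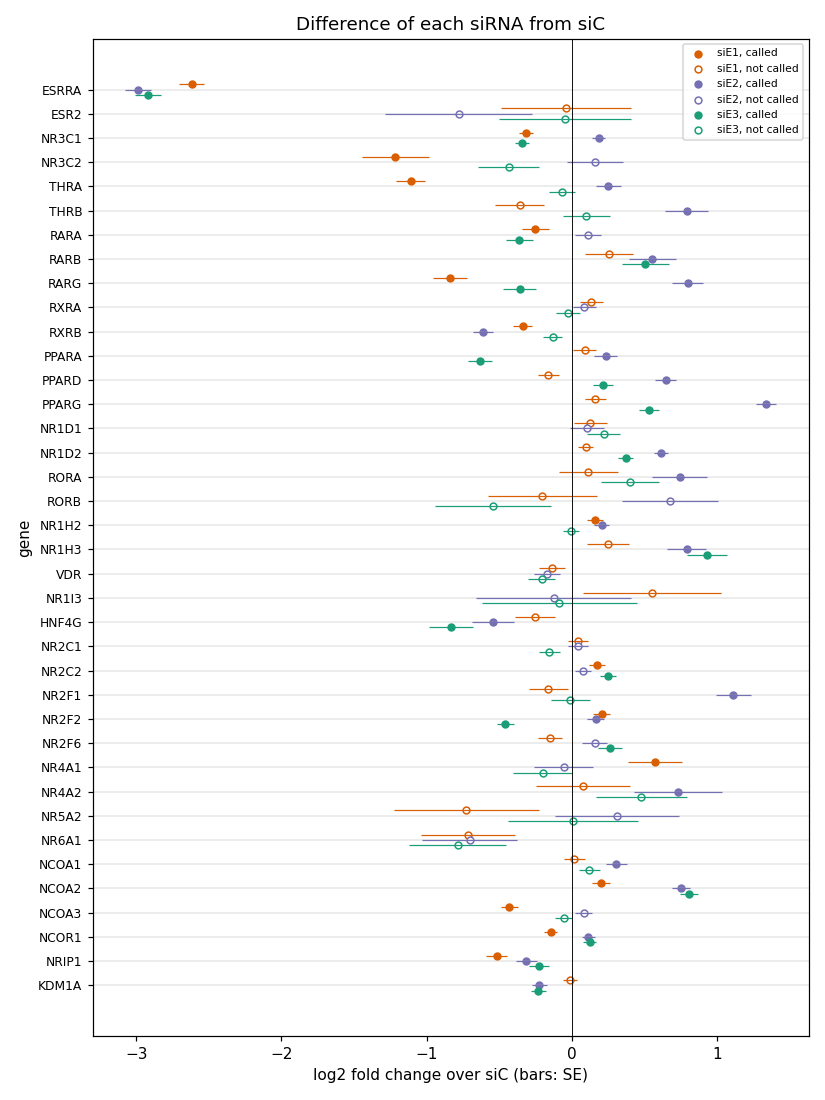
Log2 fold change over siC of the 38 tested genes for siE1, siE2 and siE3, with bars of 1 SE; filled points are called, open points are not. ESRRA lies between -2.62 and -2.99, whereas for RARG, THRA, NR3C1, PPARA, NR2F2 and NCOR1 filled points stand on both sides of 0.

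Called the same way by all 3 siRNAs were 3 of the 38 genes, ESRRA itself, NRIP1 and NCOA2; over all tested genes that share was 16.2%. NRIP1 encodes RIP140, a corepressor that restrains oxidative metabolism genes. It stood at 29.5 and 28.7 CPM with siE1, 34.3 and 32.7 with siE2, 33.7 and 37.5 with siE3, and 40.4 and 42.8 with siC. All 6 siRNA libraries lay below both siC libraries. The fall was -0.52 (SE 0.0714), -0.31 (SE 0.0706) and -0.23 (SE 0.0703), with edgeR adjusted p = 2.36e-05, 0.00142 and 0.0176. NRIP1 shares 7.25% of its exon length with AF127577.1 on the opposite strand and 1.12% with AF127577.4 on the same strand.

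NCOA2, the p160 coactivator also called TIF2 or GRIP1, stood at 49.2 and 52.1 CPM with siE1, 73.7 and 74.7 with siE2, 75.7 and 78.6 with siE3, and 46.1 and 42 with siC. All 6 siRNA libraries were above both siC libraries, with siE2 and siE3 well above siE1. The rise was 0.20 (SE 0.0629), 0.75 (SE 0.0614) and 0.81 (SE 0.0614), with edgeR adjusted p = 0.0143, 7.17e-08 and 7.04e-08. The siE1 call was lost without siC replicate 2 (log2 fold change 0.13, edgeR adjusted p = 0.179) or without siE1 replicate 2 (0.16, 0.135), and the siE3 call of NRIP1 without siC replicate 2 (-0.18, 0.136) or without siE3 replicate 1 (-0.15, 0.158).

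A looser pattern, all 6 siRNA libraries on the same side of both siC libraries, held for 12 of the 38 genes (6 above, 6 below) and for 30.5% of all tested genes. Above were NCOA2, RARB, PPARG, NR1D2, NR1H3 and NR2C2, and below were ESRRA, RXRB, VDR, HNF4G, NR6A1 and NRIP1.

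Opposite calls by 2 of the siRNAs were made for 6 of the 38 genes, or 15.8%, while 10.7% of all tested genes had such calls. They were RARG, THRA, NR3C1, PPARA, NR2F2 and NCOR1. RARG, a retinoic acid receptor found mainly in skin and other epithelia, stood at 8.77 and 11.6 CPM with siE1, 30.6 and 33.4 with siE2, 15.2 and 13.5 with siE3, and 18.8 and 18 with siC. The siE2 libraries were the highest and the siE1 libraries the lowest, and no group overlapped another. The log2 fold change was -0.84 (SE 0.119) with siE1, 0.80 (SE 0.105) with siE2 and -0.36 (SE 0.115) with siE3, with edgeR adjusted p = 3.07e-05, 1.06e-05 and 0.0199. Its siE3 call was lost without siC replicate 1 (edgeR adjusted p = 0.0853) or without siE3 replicate 2 (0.143).

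THRA, the thyroid hormone receptor α, stood at 7.18 and 7.6 CPM with siE1, 18.9 and 19.2 with siE2, 15.5 and 15.1 with siE3, and 15.7 and 16.2 with siC. Only the siE1 libraries were far from siC. The log2 fold change was -1.11 with siE1 (SE 0.0978, edgeR adjusted p = 2.22e-07), 0.25 with siE2 (SE 0.0863, edgeR adjusted p = 0.0205) and -0.07 with siE3 (SE 0.089, edgeR adjusted p = 0.57). The small siE2 rise was lost with the DESeq2 Wald test (adjusted p = 0.103) and without any of the libraries of siC or siE2. The 3' ends of THRA and of NR1D1, the clock repressor REV-ERBα, overlap on opposite strands by 263 exonic bases, and NR1D1 gave no call with any siRNA (0.13, 0.11 and 0.22).

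NR3C1, the glucocorticoid receptor, was at 132 and 133 CPM with siE1, 191 and 185 with siE2, 126 and 134 with siE3, and 166 and 164 with siC. It fell with siE1 (-0.32, SE 0.0468) and siE3 (-0.34, SE 0.047) and rose with siE2 (0.19, SE 0.0461), with edgeR adjusted p = 4.6e-05, 2.91e-05 and 0.00285. Its close relative NR3C2, the mineralocorticoid receptor, was rare, at 1.27 and 1.12 CPM with siE1, 2.72 and 3.45 with siE2, 1.87 and 2.21 with siE3, and 2.92 and 2.61 with siC. It fell with siE1 by 1.22 on the log2 scale (SE 0.23, edgeR adjusted p = 0.00043), while siE2 (0.16) and siE3 (-0.43) gave no call.

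PPARA, the fatty acid receptor that turns on β-oxidation in liver, was at 74.9 and 84.4 CPM with siE1, 85.3 and 91 with siE2, 52 and 44.9 with siE3, and 80.7 and 69.3 with siC. The siE3 libraries were below all others. The siE3 fall was -0.63 (SE 0.0855, edgeR adjusted p = 2.66e-05). The siE2 rise of 0.23 (SE 0.0814, edgeR adjusted p = 0.0229) was lost without siC replicate 2 (edgeR adjusted p = 0.276) or without siE2 replicate 2 (0.148).

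NR2F2, the orphan receptor COUP-TFII of mesenchyme and veins, was at 126 and 135 CPM with siE1, 121 and 132 with siE2, 81.1 and 83.3 with siE3, and 118 and 108 with siC. Here too the siE3 libraries were the lowest. It fell with siE3 (-0.46, SE 0.0604, edgeR adjusted p = 2.1e-05), and the rises with siE1 (0.21, edgeR adjusted p = 0.0081) and siE2 (0.17, edgeR adjusted p = 0.0253) were lost without siC replicate 2 (edgeR adjusted p = 0.12 and 0.256), and without siE1 replicate 2 (0.111) or siE2 replicate 2 (0.256). NCOR1, the corepressor that holds histone deacetylase HDAC3 on unliganded receptors, was at 345 and 362 CPM with siE1, 420 and 426 with siE2, 424 and 429 with siE3, and 405 and 377 with siC. Its changes were small, at -0.14, 0.11 and 0.12 (edgeR adjusted p = 0.0144, 0.0432 and 0.0362). Both rises were lost with the replicate number as a block (adjusted p = 0.071 with siE2 and 0.0633 with siE3) and with the DESeq2 Wald test (0.0727 and 0.0597), and the siE1 fall without siC replicate 1 (edgeR adjusted p = 0.168) or siE1 replicate 1 (0.136). Without siC replicate 2 both rises were lost too (edgeR adjusted p = 0.381 and 0.335).

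**Figure D3:**
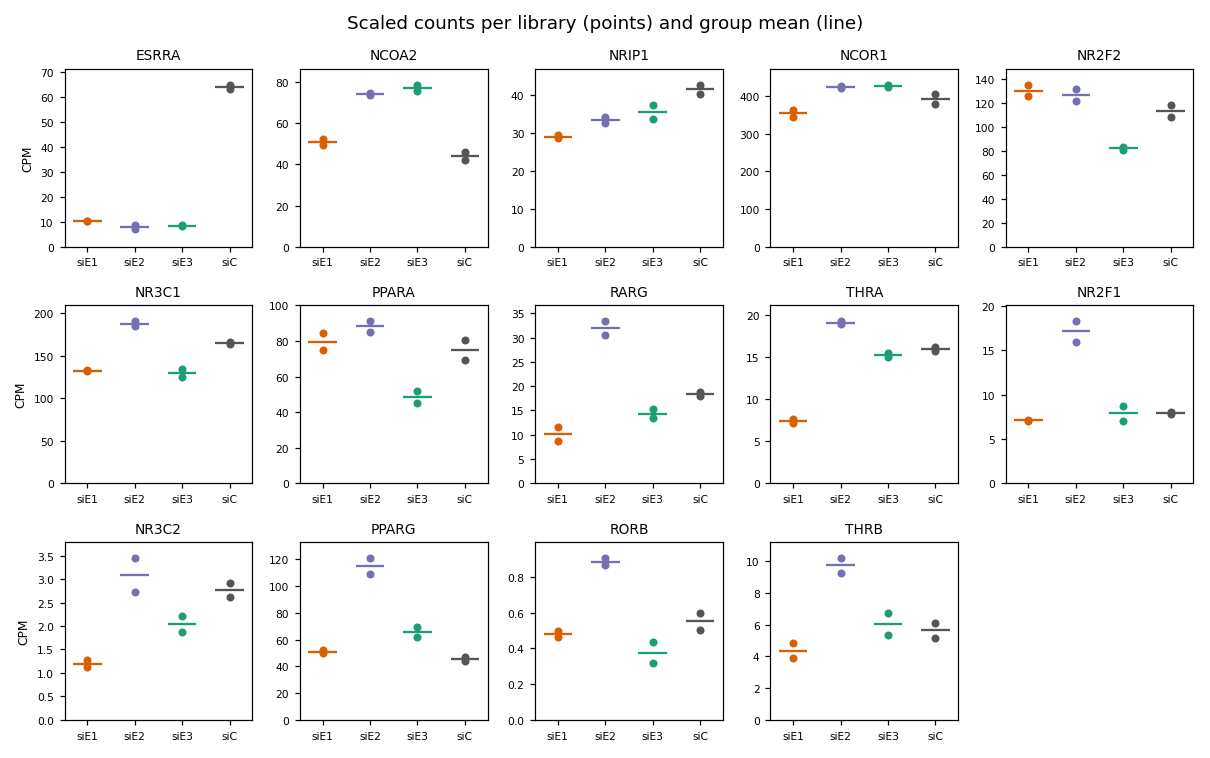
Scaled counts (CPM, linear axis from 0) of the 14 genes that were called the same way by all 3 siRNAs, in opposite directions by 2, or with a difference of at least 1 on the log2 scale between 2 siRNAs; points are libraries and lines group means (n = 2), with siE1, siE2 and siE3 left of siC. ESRRA lies at 7.25 to 10.5 CPM in its siRNA libraries, and the siE2 points of RARG, PPARG, NR2F1, THRB and RORB lie above all others.

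The 3 siRNAs were then set against each other, which tests whether their effects differ. Between siE1 and siE2, 4 of the 38 genes were higher and 19 lower with siE1 (60.5%, against 57.1% of all genes). Between siE1 and siE3, 8 were higher and 14 lower with siE1 (57.9%, against 48.7%). Between siE2 and siE3, 16 were higher and 2 lower with siE2 (47.4%, against 48.5%), and ESRRA was not among them. Over all genes this last comparison was nearly even, with 3140 higher and 3351 lower in siE2.

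A difference of at least 1 on the log2 scale between 2 siRNAs was called for 7 genes, RARG, THRA, NR3C2, NR2F1, RORB, PPARG and THRB. That is 18.4% of the 38, against 10.6% of all tested genes. A called difference of any size between 2 siRNAs was found for 29 genes (76.3%, against 75.2% of all genes). PPARG, the receptor that drives fat cell formation, was at 52.1 and 49.8 CPM with siE1, 121 and 109 with siE2, 62.3 and 69.1 with siE3, and 44 and 47 with siC. All siRNA libraries were above siC and those of siE2 far above. The rise was 1.34 with siE2 (SE 0.0687, edgeR adjusted p = 5.48e-10) and 0.53 with siE3 (SE 0.0708, edgeR adjusted p = 2.28e-05), and siE1 stood at 0.16 without a call (edgeR adjusted p = 0.0711). The difference was -1.18 between siE1 and siE2 (SE 0.0676) and 0.81 between siE2 and siE3 (SE 0.0664), with edgeR adjusted p = 1.51e-09 and 1.21e-07.

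NR2F1, the COUP-TFI receptor of neural development, was at 7.09 and 7.06 CPM with siE1, 18.2 and 16 with siE2, 8.73 and 7.01 with siE3, and 7.8 and 8.01 with siC. Only siE2 stood apart, by 1.11 from siC (SE 0.12, edgeR adjusted p = 1.41e-06), 1.12 from siE3 (edgeR adjusted p = 1.94e-06) and -1.27 for siE1 less siE2 (edgeR adjusted p = 3.46e-07). THRB, the thyroid hormone receptor β, was at 3.89 and 4.82 CPM with siE1, 10.2 and 9.28 with siE2, 6.72 and 5.36 with siE3, and 6.12 and 5.14 with siC. It rose with siE2 (0.79, SE 0.148, edgeR adjusted p = 0.000302), and siE1 less siE2 was -1.15 (SE 0.153, edgeR adjusted p = 1.18e-05). RORB, a receptor of retina and brain, was rare, with 11 and 12 counts in siE1, 20 and 21 in siE2, 7 and 10 in siE3, and 11 and 14 in siC. It gave no call against siC, while siE2 was above siE3 by 1.22 (SE 0.361, edgeR adjusted p = 0.0113).

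The remaining receptors are given by role. Among the retinoid receptors and partners, RARB, which retinoic acid induces through its own promoter, was at 5.42 and 4.67 CPM with siE1, 5.58 and 6.78 with siE2, 5.81 and 6.14 with siE3, and 4.66 and 3.77 with siC, and it rose with siE2 (0.55) and siE3 (0.51). RARA fell with siE1 (-0.25) and siE3 (-0.36). Without siC replicate 2 all 4 of these calls were lost (edgeR adjusted p = 0.0985, 0.181, 0.33 and 0.102), as they were for RARB without replicate 2 of siE2 (0.0972) or of siE3 (0.0893) and for RARA with siE1 without either siE1 library (0.0725 and 0.136). The DESeq2 Wald test also ended the siE3 call of RARB (adjusted p = 0.0732) and the siE1 call of RARA (0.0973). With the replicate number as a block, the siE1 call of RARA was lost too (edgeR adjusted p = 0.0539). The antisense gene RARA-AS1 shares 13.4% of the RARA exon length. RXRB fell with siE1 (-0.34) and siE2 (-0.61), whereas RXRA gave no call in the average (0.06, 95% interval -0.07 to 0.20).

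PPARD, the broadly expressed PPAR, rose with siE2 (0.65) and siE3 (0.22) and stood at -0.16 with siE1 without a call. Its siE3 call was lost without siC replicate 2 (edgeR adjusted p = 0.156) or siE3 replicate 1 (0.218). NR1D2, the heme-binding clock repressor REV-ERBβ, rose with siE2 (0.62, SE 0.049) and siE3 (0.37, SE 0.0493), and RORA, which activates the elements that REV-ERBs repress, rose with siE2 (0.74, SE 0.19, edgeR adjusted p = 0.00349) and stood at 0.12 and 0.40 with siE1 and siE3 without a call.

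The oxysterol receptor LXRα, NR1H3, was at 7.82 and 6.1 CPM with siE1, 9.6 and 10.5 with siE2, 11.6 and 10.6 with siE3, and 5.89 and 5.74 with siC. It rose with siE2 (0.79, SE 0.137, edgeR adjusted p = 0.000149) and siE3 (0.93, SE 0.135, edgeR adjusted p = 5.25e-05). The ubiquitous NR1H2 rose by 0.16 with siE1 and 0.21 with siE2, and the siE1 call was lost without siC replicate 1 (edgeR adjusted p = 0.0747), siC replicate 2 (0.0772) or siE1 replicate 1 (0.133). NR1H3 shares 5.39% of its exon length with ACP2. VDR, the vitamin D receptor, lay below siC in all 6 libraries, but no contrast gave a call, and its average was -0.17 (95% interval -0.33 to -0.01, edgeR adjusted p = 0.0636). NR1I3, the xenobiotic receptor CAR, shares 32.2% of its exon length with TOMM40L on the other strand and had no call.

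HNF4G, an intestinal and pancreatic receptor of the HNF4 type, was at 5.65 and 5.75 CPM with siE1, 4.24 and 5.09 with siE2, 3.93 and 3.72 with siE3, and 6.34 and 7.24 with siC. It fell with siE2 (-0.54, edgeR adjusted p = 0.0047) and siE3 (-0.83, edgeR adjusted p = 0.000387), and the siE2 call was lost without siC replicate 2 (0.0546) or siE2 replicate 1 (0.0595). The testicular receptor NR2C2 rose with siE1 (0.17) and siE3 (0.25), and NR2C1 gave no call against siC (average -0.02, 95% interval -0.14 to 0.10). NR2F6, a further COUP-TF relative, rose with siE3 (0.26). The siE1 call of NR2C2 was lost without siC replicate 1 (edgeR adjusted p = 0.0847), siC replicate 2 (0.0527) or siE1 replicate 1 (0.17), and that of NR2F6 without siC replicate 2 (0.209) or siE3 replicate 1 (0.25). NR2C2 shares 8.83% of its exon length with MRPS25, and NR2F6 shares 9.19% with AC010646.1 on the same strand.

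The immediate early receptor NR4A1 rose with siE1 (0.58, SE 0.186, edgeR adjusted p = 0.0177) and NR4A2 with siE2 (0.73, SE 0.301, edgeR adjusted p = 0.0497). Without siC replicate 2 the NR4A1 call was lost (edgeR adjusted p = 0.152), as it was without siE1 replicate 2 (0.101), and among the fits that left out a library, the NR4A2 call held only without either siE3 library (0.0195 and 0.019). The DESeq2 Wald test gave adjusted p = 0.088 for NR4A1 and 0.148 for NR4A2, and limma-voom 0.0583 for NR4A2. NR4A1 shares 18.6% of its exon length with AC025259.3 on the opposite strand. NR6A1, the germ cell nuclear factor, was lower at a similar size with each siRNA (-0.71, -0.70 and -0.79, none called) and was called in the average (-0.73, SE 0.263, edgeR adjusted p = 0.0291). That call was lost without siC replicate 1 (edgeR adjusted p = 0.0839), siC replicate 2 (0.148), siE2 replicate 1 (0.0549) or siE3 replicate 2 (0.0582). ESR2 (0.259 to 0.779 CPM) and NR5A2 (0.27 to 0.822 CPM) were near the limit of the test and gave no call.

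Among the coregulators, NCOA3, the p160 coactivator amplified in some breast cancers (AIB1), was at 62.8 and 61.4 CPM with siE1, 89.6 and 87.6 with siE2, 78.8 and 82.4 with siE3, and 87.9 and 79.6 with siC. It fell with siE1 alone (-0.43, SE 0.0583, edgeR adjusted p = 1.92e-05). The third p160 member, NCOA1, rose with siE2 alone (0.31, SE 0.0721, edgeR adjusted p = 0.00189). KDM1A fell with siE2 (-0.22) and siE3 (-0.23) and stood at -0.01 with siE1.

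Lists of other genes that work with these receptors were described by counts and medians, with no set test. Over all tested genes siE1 gave 24.5% called higher and 25.8% lower, siE2 gave 27.9% higher and 28.5% lower, siE3 gave 21.3% higher and 20.8% lower, and each list is to be read against these shares. Of 38 tested genes of further coactivator complexes, 7 rose and 13 fell with siE1, 7 rose and 16 fell with siE2, and 8 rose and 13 fell with siE3 (medians -0.02, -0.10 and -0.02). The shares called lower were 34.2%, 42.1% and 34.2%. Called lower by all 3 siRNAs were MED1, the Mediator subunit that touches receptors (-0.21, -0.36 and -1.04), PELP1 (-0.23, -0.86 and -0.31) and the arginine methyltransferase CARM1 (-0.25, -0.50 and -0.33), while the small coactivator PNRC1 was called higher (0.51, 1.48 and 0.53). Of 30 genes of further corepressor complexes, 7 rose and 8 fell with siE1, 6 rose and 10 fell with siE2, and 6 rose and 7 fell with siE3. TBL1X, an exchange factor in the NCOR1 complex, fell with siE1 by 1.23 on the log2 scale and stood at -0.09 and 0.00 with siE2 and siE3, whereas the prohibitin PHB2 (-0.24, -0.24 and -0.38) and HDAC2 (-0.11, -0.39 and -0.19) were called lower by each.

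Receptor chaperones hold steroid receptors ready for hormone. Of 19, 2 rose and 10 fell with siE1, 1 rose and 13 fell with siE2, and 2 rose and 8 fell with siE3, with medians of -0.19, -0.36 and -0.11 against -0.01, 0.01 and 0.00 over all genes. The shares called lower were 52.6%, 68.4% and 42.1%, against 25.8%, 28.5% and 20.8% of all genes, and with siE3 another 9 of the 19 gave no call. HSP90AB1 (-0.30, -0.44 and -0.39), HSPA4 (-0.41, -0.58 and -0.19), the immunophilin FKBP4 (-0.19, -0.49 and -0.42) and the HSP90 activator AHSA1 (-0.20, -0.44 and -0.22) fell with each siRNA.

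Of 23 tested genes that make, carry or break down ligands, 8 rose and 4 fell with siE1, 7 rose and 2 fell with siE2, and 8 rose and 3 fell with siE3. The shares called higher were 34.8%, 30.4% and 34.8%, against 24.5%, 27.9% and 21.3% of all genes. The steroid sulfatase STS (0.97, 1.38 and 1.07), the organic anion transporter SLCO4A1 (1.02, 0.75 and 1.02) and the retinol dehydrogenase RDH10 (0.78, 1.03 and 0.52) rose with each siRNA.

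Textbook targets of the receptors were read next to the receptors themselves. Of 8 tested LXR targets, NR1H3 included, 2 rose with siE1, 7 with siE2 and 4 with siE3, and none fell (medians 0.16, 0.38 and 0.46). With siE1 that is 25.0% against 24.5% of all genes called higher, which is the background. With siE2 it is 87.5% against 27.9%, and the siE3 count stands against 21.3%. The desaturase SCD stood at 0.04, 0.37 and 0.52, SREBF1 of lipid synthesis at 0.21, 0.32 and 0.50, both called with siE2 and siE3, and the LDL receptor ligase MYLIP rose with each (0.33, 0.45 and 0.43). The cholesterol exporter ABCG1 had 0 counts in all libraries.

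Of 9 retinoic acid receptor targets, RARB included, 4 rose and 1 fell with siE1, and 5 rose and 0 fell with siE2 and with siE3 (medians 0.53, 0.56 and 0.51). The shares called higher were 44.4%, 55.6% and 55.6%, against 24.5%, 27.9% and 21.3% of all genes. The retinal reductase DHRS3 had 20 and 20 counts with siE1, 60 and 59 with siE2, 39 and 42 with siE3, and 10 and 12 with siC, and was called with siE2 (2.39) and siE3 (1.88). RARRES3 was rare, at 8 to 13 counts in the siRNA libraries and 2 and 3 in siC. It was called higher by each siRNA and is part of the shares above. As it passed the filter through siRNA libraries alone, it could not enter those shares as a fall. TGM2 was called in both directions (-0.53, 0.75 and 0.56), and TNFAIP2 rose with siE1 (0.53) and siE2 (0.34).

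Glucocorticoid receptor targets were mixed: of 17, 6 rose and 2 fell with siE1, 8 rose and 5 fell with siE2, and 3 rose and 4 fell with siE3. TSC22D3 (GILZ; 0.46, 1.26 and 0.68) and CRISPLD2 (1.74, 1.86 and 0.77) rose and ERRFI1 (-0.12, -0.41 and -0.45) fell with each siRNA. SLC19A2 fell with siE1 (-0.31) and siE2 (-1.29). Of 13 PPAR targets, 5 rose and 2 fell with siE1, 6 rose and 1 fell with siE2, and 3 rose and 2 fell with siE3 (medians 0.07, 0.14 and -0.02). ABHD5, which activates fat droplet lipolysis, was called lower with siE1 (-0.54) and higher with siE2 (0.72) and siE3 (0.71). HADHA of β-oxidation fell with siE1 (-0.33) and siE2 (-0.35), and ACADM rose with siE1 (0.19) and siE3 (0.18). CREB3L3 had 2 counts in each siE1 library, 11 and 10 with siE2, 2 in each siE3 library and 0 in both siC libraries. It was called higher by each siRNA and is among the PPAR target rises above. As it passed the filter through siE2 alone, it could not enter those counts as a fall. Against a floor of 3 counts over the siC group it stood 1.26-fold (siE1), 6.84-fold (siE2) and 1.34-fold (siE3) higher. The counting error of the siRNA libraries is not in these folds. With CREB3L3 at this floor the list medians were the same, which was fixed beforehand, as the gene stays above them.

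Of 15 circadian genes with REV-ERB or ROR elements, 5 rose and 2 fell with siE1, 3 rose and 3 fell with siE2, and 4 rose and 5 fell with siE3. The output factor DBP rose with each siRNA (1.14, 2.10 and 1.26), as did BHLHE40 (0.39, 0.66 and 0.78). The kinase CSNK1E fell with each (-0.46, -0.44 and -0.36), and the repressor CRY1 fell with siE2 (-0.32) and siE3 (-0.41).

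Of 6 VDR targets, 4 rose and 1 fell with siE1, 4 rose and 0 fell with siE2, and 3 rose and 1 fell with siE3. G0S2 (0.30, 0.41 and 0.83) and thrombomodulin, THBD, (0.45, 0.47 and 0.48) rose with each siRNA, SLC37A2 rose with siE2 (1.70) and siE3 (0.42), and IGFBP3 was called in both directions (-1.33, 0.81 and -0.64). CD14, also a monocyte marker, had 18 and 18 counts with siE1, 7 and 9 with siE2, 4 and 10 with siE3, and 4 and 4 with siC, next to 0 to 2 counts of PTPRC. It is 1 of the 4 rises with siE1 (2.05). As it passed the filter through siE1 alone, it could not enter the siE1 count as a fall.

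Of 6 thyroid hormone receptor targets, THRB included, 0 rose and 1 fell with siE1, 4 rose and 0 fell with siE2, and 1 rose and 1 fell with siE3 (medians -0.12, 0.30 and 0.08). BCL3 rose with siE2 (0.81), ME1 with siE2 (0.21) and siE3 (0.26), and KLF9 with siE2 (0.40), while HIF1A fell with siE1 (-0.16) and siE3 (-0.30). Of 8 estrogen receptor targets, in cells with almost no ESR1 mRNA, 4 rose and 0 fell with siE1, 3 rose and 4 fell with siE2, and 3 rose and 2 fell with siE3. IGFBP4, a binding protein of insulin-like growth factors (average 1.12), and the lysosomal protease CTSD (0.19, 1.27 and 0.66) rose with each, and XBP1 (-0.38 and -0.41) and SIAH2 (-0.49 and -0.19) fell with siE2 and siE3. PXR and CAR targets had 2 tested genes, of which ALAS1 of heme synthesis fell with siE2 (-0.83) and POR rose with siE1 (0.19).

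**Figure D4:**
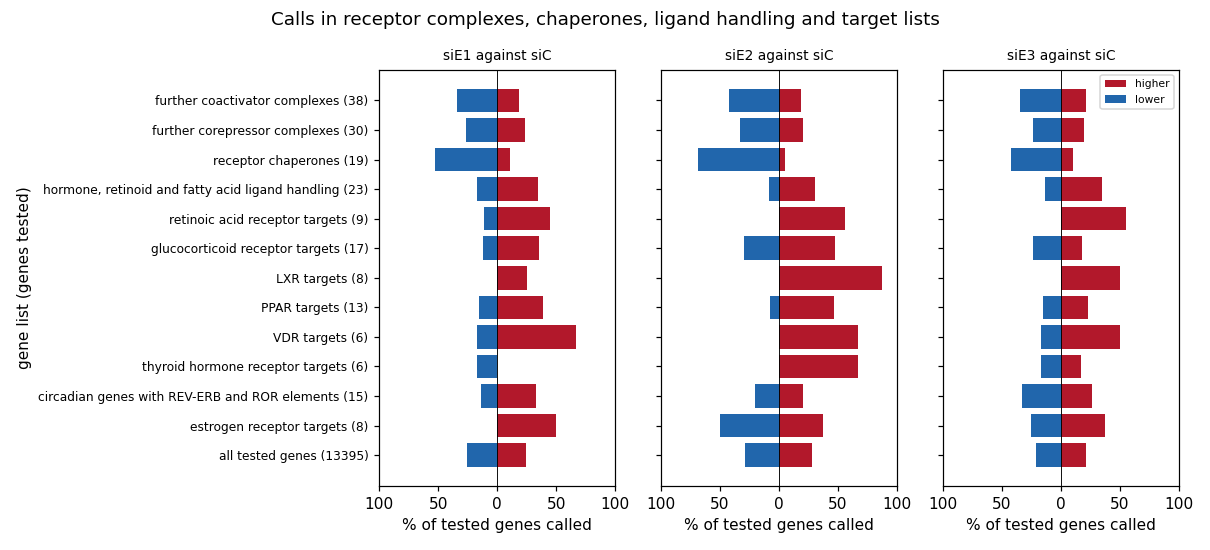
Share of the tested genes of each list called higher (right) or lower (left) with siE1, siE2 and siE3 against siC, with the number tested in brackets and all 13395 tested genes in the bottom row. Chaperones were called lower in 10, 13 and 8 of 19 cases with siE1, siE2 and siE3, and no LXR target was called lower.

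In the authors' deposited table, 11 of the 52 genes had an adjusted p below 0.05 with siE1 (3 higher, 8 lower), 18 with siE2 (13 higher, 5 lower) and 13 with siE3 (5 higher, 8 lower). All of these were called here with the same sign. The reverse did not hold, as 15, 23 and 18 genes were called here. Of the 6 genes with opposite calls here, 3 had none in the authors' table. There THRA and PPARA had adjusted p = 0.12 and 0.115 with siE2, and NCOR1 had 0.117, 0.117 and 0.174 with siE1, siE2 and siE3. In the authors' deposited table PPARG had a fold of 1.12 (adjusted p = 0.13), 2.51 (6.54e-30) and 1.45 (4.92e-07) with siE1, siE2 and siE3, and NRIP1 had 0.702 (3.16e-07), 0.8 (0.00165) and 0.856 (0.0859).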

How the data were processed

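RNA-seq had been run on 8 libraries of MDA-MB-231 cells, 2 for each of siE1, siE2, siE3 and siC, grouped here by sample title. TopHat 1.3.3, HTSeq and DESeq are the tools listed in the submitters' processing notes, with hg19 as the build. No source used here gives the annotation or the strand setting. Per the file headers, the deposited table holds raw counts per gene symbol, with a fold (a linear ratio) and an adjusted p-value by the authors for each siRNA against siC.

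From the counts, filterByExpr of edgeR 4.0.16 kept 13395 genes, TMM factors were 0.980 to 1.02, and glmQLFit and glmQLFTest were run in a single model of all 8 libraries and 4 groups (4 residual degrees of freedom), with Benjamini-Hochberg adjustment over all tested genes. Each SE was taken as the absolute log2 fold change over the square root of F. The test had also been run on simulated counts with changes seeded in a small part of the genes. Far more genes were called here, so that run does not check the scaling in this setting. R was 4.3.3, limma 3.58.1, DESeq2 1.42.0, Python 3.11.15.

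The genes and lists were chosen with earlier results of these data known. Described in full were genes with same-sign calls under every siRNA, with opposite calls under 2, or differing by at least 1 (log2) between 2 siRNAs, and from each list up to 4 genes with the smallest p in the average. 1 gene that this rule names is not reported here. Promoter windows are from RefSeq on GRCh38.p14. Exon overlaps and lengths are from GENCODE v29 on GRCh38, not the authors' build, so no coordinates of it are given.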

Additional observations from a re-analysis of the deposited data

Results flagged for a closer look

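The effects of the siRNAs against siC differed between siRNAs, by the edgeR test of the difference itself, for 29 of the 38 tested genes, and 9 had no such call. That share, 76.3%, was near the 75.2% of all tested genes with a call in any of the 3 comparisons. The largest called difference of each gene is given as a log2 value. It lay between siE1 and siE2 for 12 genes, as siE1 less siE2: ESRRA (0.37), NCOA1 (-0.29), NCOA3 (-0.51), NR1D2 (-0.52), NR2F1 (-1.27), NR3C2 (-1.38), PPARD (-0.81), PPARG (-1.18), RARG (-1.64), RORA (-0.63), THRA (-1.36) and THRB (-1.15). It lay between siE1 and siE3 for 9 genes, as siE1 less siE3: HNF4G (0.58), KDM1A (0.22), NCOA2 (-0.61), NCOR1 (-0.27), NR1H3 (-0.68), NR2F2 (0.66), NR2F6 (-0.41), NR4A1 (0.78) and NRIP1 (-0.29). It lay between siE2 and siE3 for 8 genes, as siE2 less siE3: NR1H2 (0.21), NR2C1 (0.20), NR2C2 (-0.17), NR3C1 (0.53), PPARA (0.87), RARA (0.47), RORB (1.22) and RXRB (-0.48). The share of all tested genes called in the single comparisons was 57.1%, 48.7% and 48.5%. Groups of 2 libraries are too small to look for a library far from the others.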

How the results depend on the processing

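No called log2 fold change of the 38 genes against siC changed sign under any alternative run. With a test against a fold limit of 1.5 (glmTreat) in place of 0, the genes called were 3 (siE1), 4 (siE2), 2 (siE3) and 1 (average) against siC, 7 between siE1 and siE2, 1 between siE1 and siE3 and 4 between siE2 and siE3, as the test asks for more. Leaving out each library in turn gave 9 to 15 genes for siE1, 13 to 22 for the average and 3 to 6 for the 1.5-fold count of the average; the cause was not tested. The other scalings, filters, the DESeq2 Wald test, limma-voom and the fit of only the groups compared kept each count of called genes within 1.5 times; that last fit cannot be made for the average, which uses all groups. With the replicate block, 14, 21 and 17 genes were called with siE1, siE2 and siE3 and 19 in the average, and it ended 6 calls of single genes. The labels do not say that equal numbers share a batch. Deviations of equally numbered libraries correlated positively for siE1 with siE2 (0.255) and siC with siE3 (0.135). For the remaining pairs of groups the correlation was -0.289 to -0.209, so the numbers were not taken as pairs. The replicate block does not model a batch shared by unequal numbers, which was not tested. Genes below about 1 CPM had SEs above 0.25, so that small changes were not detectable at this depth.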
